A study of Homo sapiens with 8 samples.

Results

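Histone genes that are transcribed during DNA replication, together with the linker histone genes, were examined in 2 multiple myeloma (MM) cell lines after exposure to a statin. The members are the genes whose GENCODE release 44 symbol names an H1 linker histone or a clustered H2A, H2B, H3 or H4 gene and whose estimated counts sum to at least 40 over the 8 libraries. Of 58219 genes listed, 69 carried such a symbol and 59 reached that sum: 7 H1, 14 H2A, 17 H2B, 10 H3 and 11 H4 genes. H929 and KMS11 are established MM lines that both carry the t(4;14) translocation, which joins the immunoglobulin heavy chain locus to the region of NSD2 and FGFR3. Cells of each line received 2 µM fluvastatin, a statin, or ethanol as its solvent, and RNA was taken after 24 h. Each line and treatment had 2 biological replicates, so each group is 1 cell line in culture, and the p values measure the spread between these replicates only.

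Nucleosomes wrap DNA around 2 copies each of the core histones H2A, H2B, H3 and H4, and linker histones of the H1 family bind the DNA between nucleosomes. Most of these proteins are needed in bulk only while DNA is copied, so their genes are expressed mainly in S phase. Their mRNAs end in a conserved stem-loop instead of a poly(A) tail, and the stem-loop binding protein SLBP controls their processing, translation and decay. The libraries were made from total RNA after removal of ribosomal RNA, without selection of poly(A) tails, so mRNAs of this kind could be captured. In bulk RNA, fewer cells expressing a gene and less of its RNA per cell cannot be told apart.

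The stem-loop was looked for in the GRCh38 sequence within 150 bases after the stop codon, because it separates genes with replication-dependent mRNA ends from the others. The 16-base histone stem-loop consensus was found in 55 of 59 members and started between 23 and 63 bases after the stop codon (median 36). Over all protein-coding genes with an annotated stop codon, 69 of 19607 (0.352%) held it, and the 14 of these that were not members all had a histone symbol. It was not found in 4 members, among them H1-10, H2BC10 and H3C6. It occurred in 7 forms, and the most frequent, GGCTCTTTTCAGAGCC, stood in 33 members. The lines below give 1 or 2 members of each family that the later results turn on, with 5 flanking bases in lower case and the stem-loop in capitals. They lie at chr6:27866792-27866817 (minus strand), chr6:27147541-27147566 (plus), chr6:27837880-27837905 (minus), chr6:27807479-27807504 (minus), chr1:149813223-149813248 (minus) and chr1:149833027-149833052 (plus), in the order printed.
H1-5: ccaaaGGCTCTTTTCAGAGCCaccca
H2AC12: acaaaGGCTCTTTTCAGAGCCattct
H2AC15: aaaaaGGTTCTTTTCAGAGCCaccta
H2BC13: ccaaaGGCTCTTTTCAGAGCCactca
H3C13: ctaaaGGCTCTTTTCAGAGCCactgc
H4C14: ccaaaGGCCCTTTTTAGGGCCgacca
The H2AC15 form differs from the most frequent one in the first arm of the stem and stood in 1 member, whereas the H4C14 form stood in 3.

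Promoter windows of 250 bases before to 50 bases after the start, from RefSeq on GRCh38.p14, were matched for 54 of 59 members and searched on both strands. TATAAA was present in 34 of them (63.0%), against 11.5% of all 35116 promoters. CCAAT was present in 45 (83.3%), against 34.6% of all promoters, and it was found in 13 of 13 H2A and 17 of 17 H2B windows but in 1 of 9 H4 windows. The window listed for H3C4 is the same as that of H2AC7, so it is counted under both genes. ATTTGCAT, the octamer read by POU factors such as POU2F1, was present in 24 (44.4%), against 1.77% of all promoters, with 10 of 13 H2A and 13 of 17 H2B windows among them. AAACACA, known as the H1 box, was present in 5 of 6 H1 windows and in 5.64% of all promoters. Divergent H2A and H2B genes share overlapping windows, so these counts are not of independent sequences. The windows of an H2A and an H1 gene that fell in H929 are printed to show both arrangements, at chr1:149887916-149888215 (minus strand) for H2AC21 and chr6:26156079-26156378 (plus strand) for H1-4, with the searched motifs on either strand in capitals.
H2AC21: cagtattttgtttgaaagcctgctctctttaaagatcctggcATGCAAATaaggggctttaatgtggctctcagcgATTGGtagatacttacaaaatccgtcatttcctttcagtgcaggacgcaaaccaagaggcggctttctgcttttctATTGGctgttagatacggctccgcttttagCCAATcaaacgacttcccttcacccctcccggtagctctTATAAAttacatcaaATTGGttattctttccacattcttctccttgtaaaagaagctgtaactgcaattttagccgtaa
H1-4: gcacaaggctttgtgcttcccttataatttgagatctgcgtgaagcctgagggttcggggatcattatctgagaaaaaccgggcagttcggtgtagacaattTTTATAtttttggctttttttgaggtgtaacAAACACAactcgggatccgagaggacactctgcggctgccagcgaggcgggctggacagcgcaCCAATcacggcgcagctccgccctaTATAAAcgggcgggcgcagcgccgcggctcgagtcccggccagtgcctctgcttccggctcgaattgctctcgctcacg

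Library totals ranged from 26702515 to 41910446 counts. The plasma cell gene JCHAIN was abundant in both lines, at 3935 to 6237 TPM (the deposited level scaled by transcript length), but CD38 was between 0.01 and 0.04 TPM in the KMS11 libraries. In ethanol 7 of 8 plasma cell genes were lower and 0 higher in KMS11 than in H929 at an edgeR adjusted p under 0.05. Of all genes tested, 36.4% were lower. NSD2 was expressed in both lines and FGFR3 was higher in KMS11. Of the markers of other cell types, EPCAM stood at 30.2 to 35.9 TPM in KMS11 and the summed level of all 12 was 8.42 to 12.2 TPM in H929. Of 8 plasma cell genes, XBP1 was lower in fluvastatin across both lines and none was higher, against 516 and 854 of all 13129 genes. Within H929, 2 were higher and 3 lower in fluvastatin, against 22.7% and 19.3% of all genes. Within KMS11, 0 were higher and 1 lower, against 2.58% and 0.533%.

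Members on chromosome 6 numbered 45, and 11 lie on chromosome 1, with H1-10 alone on chromosome 3 and H4C16 alone on chromosome 12. The sum of 40 counts left out H4C6 with 25, H4C12 with 4.18, H1-1 with 3 and H2BC1 with 2 counts, and 6 further genes listed at 0, while the lowest members inside it were H1-6 with 68 and H2BC6 with 207. All 59 members passed the filter on low counts. Of these, 51 had at least 10 counts in every library, 7 had them in the H929 libraries only and H1-6 had them in the H929 ethanol libraries only. Sequence shared between copies limits single genes: in 12 members fewer than 50% of the 75-base windows of the transcript were found in no other gene, and 36 members were unique throughout. H4C14 and H4C15 had no window of their own, and neither did H3C15, which shares its sequence with H3C14.

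In ethanol the most abundant member was H4C14 in H929, with a mean of 1649 TPM against 523 TPM in KMS11, and H4C8 in KMS11, with 775 TPM against 488 TPM in H929. Among linker histones H1-2 led with 536 TPM in H929 and 634 TPM in KMS11, followed in H929 by H1-4 at 414 TPM and in KMS11 at 266 TPM. H2BC12 had 437 and 404 TPM and H2BC4 had 316 and 539 TPM in H929 and KMS11. H2AC13, which shares sequence with H2AC14, stood at 161 and 224 TPM and H2AC21, the unique H2A gene with the highest mean over all libraries, at 107 and 112 TPM. H3C7, the H3 gene with the highest mean, was at 203 TPM in H929 and 41.1 TPM in KMS11. These are levels per effective length as the authors deposited it, and 15 members had a deposited length over 2 times that of the release 44 transcript, which lowers their TPM relative to other genes. The members together made up 0.882% and 0.609% of all counts in the H929 ethanol libraries and 0.375% and 0.395% in the KMS11 ethanol libraries.

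KMS11 carried less of this RNA than H929 before treatment, by an amount that depended on the scale. Of the members, 8 had no more than 14 counts over the KMS11 libraries, and H2BC9 had 63. In CPM, counts scaled to a total of 1000000 over the tested genes with no correction for length, the members summed to 10333 and 7159 in the H929 ethanol libraries and to 4084 and 4374 in those of KMS11, a ratio of 0.484. The ratio was 0.206 for H3, 0.411 for H4, 0.541 for H2A, 0.579 for H1 and 0.629 for H2B. On the TPM scale the members summed to 10546 and 7307 in H929 ethanol and to 6844 and 6905 in KMS11 ethanol, a ratio of 0.770. By family that ratio was 0.278 for H3, 0.618 for H4, 0.717 for H2A, 0.878 for H1 and 1.08 for H2B. The gap was thus narrower than in CPM for every family, and H2B was not lower in KMS11. By the quasi-likelihood test of edgeR with Benjamini-Hochberg adjusted p values, 41 of 59 members were lower in KMS11 and 0 were higher, with a median log2 difference of -1.22, while 36.4% of the 13129 genes tested were lower. The 41 include the 8 members with no more than 14 counts in KMS11. These passed the filter on low counts through H929 and so had to differ, and for them the count is not read against that share. The 0 higher stood also at an unadjusted p under 0.05 and with DESeq2. After trends with GC content and length were removed 34 were lower and 4 higher, against 39.8% and 37.0% of all genes. With limma on log2(TPM + 1) 29 were lower and 4 higher, against 18.9% and 50.6% of all genes. Abundant short non-coding RNAs (RN7SK, RN7SL1, RN7SL2, RMRP and RPPH1, chosen after their values were seen) summed to 100662 and 98050 CPM of all genes in H929 ethanol and to 49135 and 52282 in KMS11 ethanol, a ratio of 0.510. Their part in the lower level of the members was not tested.

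The linker histones differed in how far they separated the lines. H1-10, which is transcribed throughout the cycle, had 62.1 and 50.7 CPM in H929 ethanol against 5.40 and 5.11 CPM in KMS11 ethanol (log2 difference -3.42 ± 0.32 SE, adjusted p = 6.13e-06). H1-3 was lower in KMS11 by a smaller amount, at 61.3 and 60.2 CPM against 243 and 170 CPM (-1.77 ± 0.22 SE, adjusted p = 4.54e-05). H1-2 was at 439 and 432 CPM in KMS11 and 627 and 439 CPM in H929, and H1-5 was at 119 and 115 CPM and 156 and 126 CPM. Neither passed the threshold between the lines (adjusted p = 0.209 and 0.267).

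On chromosome 6 the members absent or nearly absent from KMS11 lay in stretches that also held members expressed there. H4C4 (chr6:26188710-26189112) had 61.6 and 52.5 CPM in H929 ethanol and 0 counts in both KMS11 ethanol libraries, so it was at least 1424-fold higher in H929 when 3 counts over both KMS11 libraries are taken as the floor. On the same floor the difference was at least 1091-fold for H2BC26, at least 485-fold for H3C4, at least 275-fold for H4C1, at least 263-fold for H3C1 and at least 98.6-fold for H2AC25, which were all listed at 0 in the 4 KMS11 libraries. H2BC3 had 7 counts in KMS11 ethanol (208-fold higher in H929, 95% counting interval 101 to 518) and H1-6 had 4 (15.1-fold, 5.88 to 55.3). H2BC9 was at 206 and 161 CPM in H929 ethanol and 0.678 and 0.328 CPM in KMS11 ethanol (log2 difference -8.49 ± 0.36 SE, adjusted p = 3.34e-08). Between H3C1 (chr6:26020451-26020958) and H4C1 (chr6:26021649-26022050) on one side and H2BC3 on the other, H4C2 stood at 218 TPM in H929 and 233 TPM in KMS11 and H2AC4 at 44.7 and 19.8 TPM. H4C4 and H3C4 were followed by H2AC7 and H2BC7, at 17.8 and 88.9 TPM in KMS11, and H2BC9 lay between H3C7 and H3C8, at 41.1 and 22.9 TPM there. H2AC25 and H2BC26 are neighbours on chromosome 1 (chr1:228434777-228457873 and chr1:228458103-228463104). H3C4 shares nearly all of its sequence with another annotated gene, and the members absent from KMS11 passed the filter on low counts through H929, so that their difference between the lines is given as a description.

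**Figure D1:**
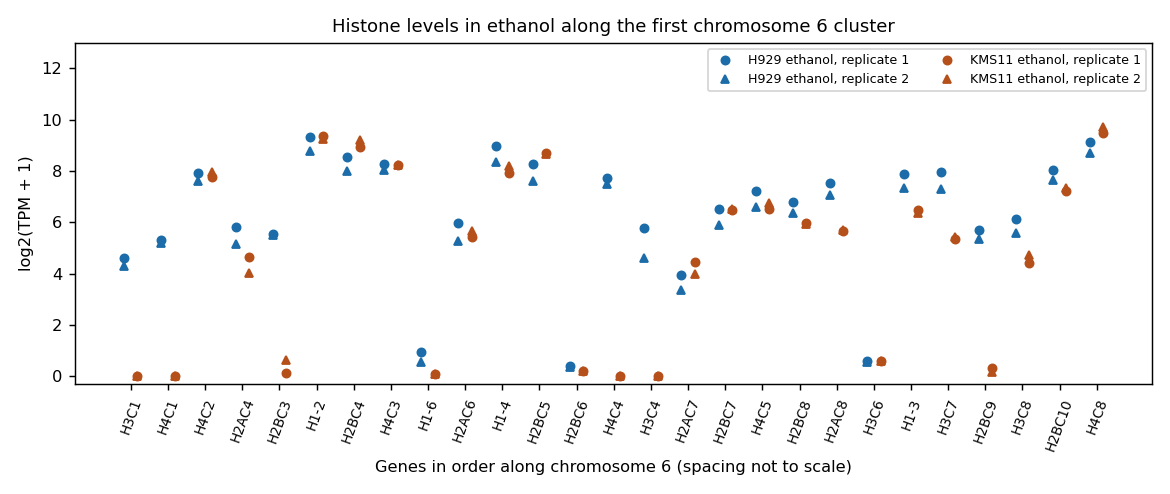
Levels of 27 histone genes in their order along the chromosome 6 cluster in ethanol, as log2(TPM + 1) on the vertical axis, with the points of the replicates of H929 and KMS11. Most genes were expressed in both lines, whereas H3C1, H4C1, H4C4 and H3C4 had 0 TPM in KMS11 and H2BC3 and H2BC9 had 0.315 and 0.18 TPM.

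In fluvastatin, histone mRNA was lower in H929 and not in KMS11. Summed over all members, H929 had 10333 and 7159 CPM in ethanol and 4605 and 2831 CPM in fluvastatin (8746 ± 2245 against 3718 ± 1254, mean ± SD, n = 2), which is 2.35-fold lower. The treated libraries were both below the ethanol libraries. KMS11 had 4084 and 4374 CPM in ethanol and 7036 and 4835 CPM in fluvastatin, so its treated libraries were both above the ethanol libraries (ratio 1.40), but the treated replicates were farther apart than any ethanol library was from the lower of them. By family, the ratio of fluvastatin to ethanol in H929 was lowest for H3 (0.340), followed by H4 (0.393), H2B (0.410) and H2A (0.418), and highest for H1 (0.587). In KMS11 the order was different, with 1.78 for H3, 1.55 for H2A, 1.54 for H4, 1.41 for H1 and 1.20 for H2B. Sums over a family do not depend on how reads were divided between near-identical copies within that family. Some members share sequence outside it, such as H2AC17 with H3C12 (65.9% of its windows) and H4C11 with H4C12, which is not a member (91.4%). The division of such reads can change the family sums, and no test was made on these sums.

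**Figure D2:**
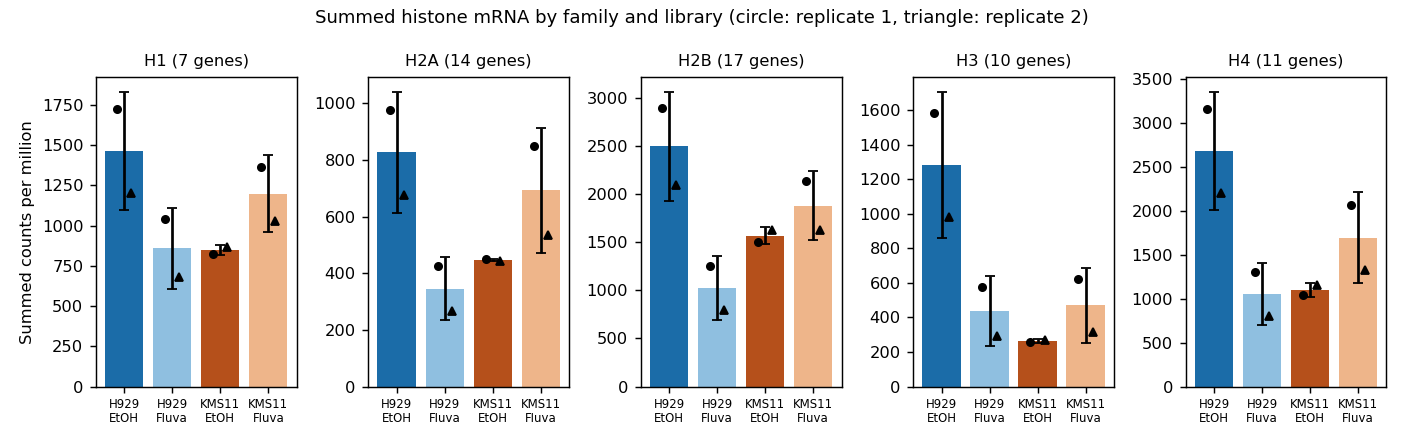
Summed CPM of the members of each family (H1, H2A, H2B, H3 and H4) for H929 and KMS11 in ethanol and in fluvastatin, with bars for the mean, error bars for the SD and points for the 2 replicates. H929 in fluvastatin is below H929 in ethanol in each family, while the mean of KMS11 in fluvastatin is above that of KMS11 in ethanol.

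In H929, 49 of 59 members were lower in fluvastatin at an edgeR adjusted p under the threshold of 0.05, and the median log2 fold change was -1.27. Of all 13129 genes tested, 19.3% were lower, with a median log2 fold change of 0.02. Both treated libraries were below both ethanol libraries for 53 members, an order seen in 33.5% of all genes. The members lower numbered 4 of 7 for H1, 11 of 14 for H2A, 16 of 17 for H2B, 8 of 10 for H3 and 10 of 11 for H4. Where the stem-loop was found 48 of 55 members were lower, and of those without it H2BC10 was lower and H1-10 and H3C6 passed in neither direction. Of the 47 members with at least 50% unique windows, 39 were lower. The call rests in part on 1 library: without H929 fluvastatin replicate 2, 32 members were lower (13.6% of all genes), and without H929 ethanol replicate 1, 33 were (14.2%). The members that fell all kept a negative change in each of the 18 alternatives, and 30 of the 49 stayed past the threshold in every one of them.

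Linker histones expressed in S phase fell in H929, 3 of 4 by less than the median member. H1-5 had 156 and 126 CPM in ethanol and 54.2 and 37.1 CPM in fluvastatin in H929 (log2 fold change -1.63 ± 0.22 SE, adjusted p = 0.000329). H1-3 had 243 and 170 CPM against 116 and 77.1 CPM (-1.10 ± 0.21 SE, adjusted p = 0.00249). The more abundant H1-4 went from 617 and 405 CPM to 372 and 219 CPM (-0.79 ± 0.26 SE, adjusted p = 0.0356), and H1-2 from 627 and 439 CPM to 405 and 281 CPM (-0.64 ± 0.20 SE, adjusted p = 0.0275). Both treated libraries were the lower ones for each of these 4 genes. The calls of H1-4 and H1-2 were lost without H929 ethanol replicate 1 (adjusted p = 0.238 and 0.211) or without H929 fluvastatin replicate 2 (adjusted p = 0.202 and 0.175).

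The remaining linker histones named here did not pass in H929. H1-10 was at 62.1 and 50.7 CPM in ethanol and 64.8 and 44.3 CPM in fluvastatin, with overlapping groups (log2 fold change -0.05, adjusted p = 0.914). H1-6, a testis linker histone, had 32 and 13 counts in ethanol and 11 and 8 in fluvastatin and did not pass the threshold (adjusted p = 0.149).

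Among H2A genes H2AC12 showed the most negative change in H929, with 49.5 and 30.2 CPM in ethanol and 9.62 and 4.75 CPM in fluvastatin (log2 fold change -2.48 ± 0.44 SE, adjusted p = 0.0015). H2AC15 went from 13.6 and 8.84 CPM to 4.17 and 1.81 CPM (-1.92 ± 0.46 SE, adjusted p = 0.00794) and H2AC4 from 25.3 and 16.2 CPM to 7.25 and 4.59 CPM (-1.81 ± 0.30 SE, adjusted p = 0.00103). For these 3 genes each treated library was below each ethanol library. H2AC21, which has unique sequence, had 60.9 and 38.2 CPM in ethanol and 22.1 and 13.4 CPM in fluvastatin (-1.48 ± 0.30 SE, adjusted p = 0.00337). H2AC13 and H2AC14, which share sequence, summed to 152 and 109 CPM in ethanol and 56.0 and 31.7 CPM in fluvastatin, 2.96-fold lower, and each passed alone with log2 fold changes of -1.56 and -1.64. H2AC16 went from 12.1 and 7.16 CPM to 4.79 and 2.38 CPM (-1.44 ± 0.42 SE, adjusted p = 0.0192). H2AC15 no longer passed without H929 fluvastatin replicate 2 (adjusted p = 0.0514), nor did H2AC14 and H2AC16 (0.0805 and 0.119), which also missed it without H929 ethanol replicate 1 (0.0827 and 0.124). The H2A members that did not pass were H2AC20 (log2 fold change -0.79, adjusted p = 0.0551), H2AC6 (-0.73, adjusted p = 0.0556) and H2AC25 (-0.48, adjusted p = 0.237).

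H2BC10 had the lowest adjusted p of all members in H929, with 113 and 87.3 CPM in ethanol and 27.1 and 19.7 CPM in fluvastatin (log2 fold change -2.10 ± 0.20 SE, adjusted p = 4.18e-05). H2BC13 went from 67.5 and 42.1 CPM to 18.4 and 9.18 CPM (-2.00 ± 0.34 SE, adjusted p = 0.00129). H2BC12 and H2BC4, the H2B members with the highest mean TPM, had log2 fold changes closer to 0, a contrast that was not tested. H2BC12 had 221 and 162 CPM in ethanol and 96.5 and 59.4 CPM in fluvastatin (-1.30 ± 0.25 SE, adjusted p = 0.00228), and H2BC4 had 314 and 219 CPM against 172 and 111 CPM (-0.91 ± 0.22 SE, adjusted p = 0.00878). H2BC4 passed the threshold neither without H929 ethanol replicate 1 nor without H929 fluvastatin replicate 2 (adjusted p = 0.0638 and 0.0545). H2BC9, H2BC26 and H2BC3, which KMS11 hardly expressed, also fell in H929, with log2 fold changes of -1.35 ± 0.23, -1.23 ± 0.28 and -0.95 ± 0.22 (SE). The call of H2BC26 was lost without H929 ethanol replicate 1 (adjusted p = 0.0598) and that of H2BC3 without H929 fluvastatin replicate 2 (adjusted p = 0.0546). H2BC6 was the H2B member that did not pass, at a mean of 0.207 TPM over all libraries (adjusted p = 0.894).

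Core histone H3 genes had the lowest family ratio. H3C13 had 33.0 and 20.4 CPM in ethanol and 6.32 and 3.26 CPM in fluvastatin (log2 fold change -2.48 ± 0.54 SE, adjusted p = 0.0048), the most negative value of any member. H3C7, the H3 gene with the highest TPM, had 125 and 78.2 CPM in ethanol and 66.9 and 30.6 CPM in fluvastatin (-1.06 ± 0.37 SE, adjusted p = 0.0432), and it did not pass without H929 ethanol replicate 1 or H929 fluvastatin replicate 2 (adjusted p = 0.238 and 0.218). H3C1 went from 11.7 and 9.40 CPM to 3.65 and 2.54 CPM (-1.77 ± 0.26 SE, adjusted p = 0.0012). H3C14 and H3C15 cannot be separated by their reads, and the files divide them unevenly: in KMS11 ethanol replicate 1 both had 56.4 CPM, while in replicate 2 H3C14 had 96.5 and H3C15 had 2.98 CPM. As a pair they summed to 900 and 532 CPM in H929 ethanol and 304 and 138 CPM in H929 fluvastatin, 3.24-fold lower. H3C15 alone passed the threshold (log2 fold change -2.37 ± 0.81 SE, adjusted p = 0.0388) and lost it without any 1 of the H929 libraries (adjusted p from 0.0586 to 0.139), and H3C14 did not pass (adjusted p = 0.2). H3C4 went from 27.0 and 11.9 CPM to 8.56 and 2.13 CPM (-1.87 ± 0.59 SE, adjusted p = 0.0346), a call lost without H929 ethanol replicate 1 (adjusted p = 0.197), without H929 fluvastatin replicate 2 (0.0868) and with DESeq2 (0.276). H3C6, without a stem-loop in the window, was at 1.63 and 1.84 CPM in ethanol and 2.15 and 2.22 CPM in fluvastatin (log2 fold change 0.33, adjusted p = 0.348).

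H4C14 was assigned more reads than any other member in H929 ethanol, and it encodes the same protein as the other H4 members. It had 1732 and 1158 CPM in ethanol and 590 and 306 CPM in fluvastatin in H929 (log2 fold change -1.69 ± 0.37 SE, adjusted p = 0.00455). Its copy H4C15 had 27.0 and 23.6 CPM against 25.6 and 35.5 CPM and did not pass (adjusted p = 0.2). Summed, the pair had 1759 and 1182 CPM in ethanol and 615 and 342 CPM in fluvastatin, 3.07-fold lower. H4C4, which has unique sequence, went from 61.6 and 52.5 CPM to 18.8 and 15.7 CPM (-1.72 ± 0.16 SE, adjusted p = 7.17e-05) and H4C1 from 11.4 and 10.6 CPM to 4.48 and 3.10 CPM (-1.54 ± 0.25 SE, adjusted p = 0.0017). H4C8 fell by less, from 314 and 230 CPM to 165 and 114 CPM (-0.97 ± 0.20 SE, adjusted p = 0.00303). H4C9 had 90.8 and 56.1 CPM in ethanol and 33.3 and 14.3 CPM in fluvastatin (-1.63 ± 0.48 SE, adjusted p = 0.0204), and without H929 ethanol replicate 1 or H929 fluvastatin replicate 2 its adjusted p was 0.103 or 0.111.

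**Figure D3:**
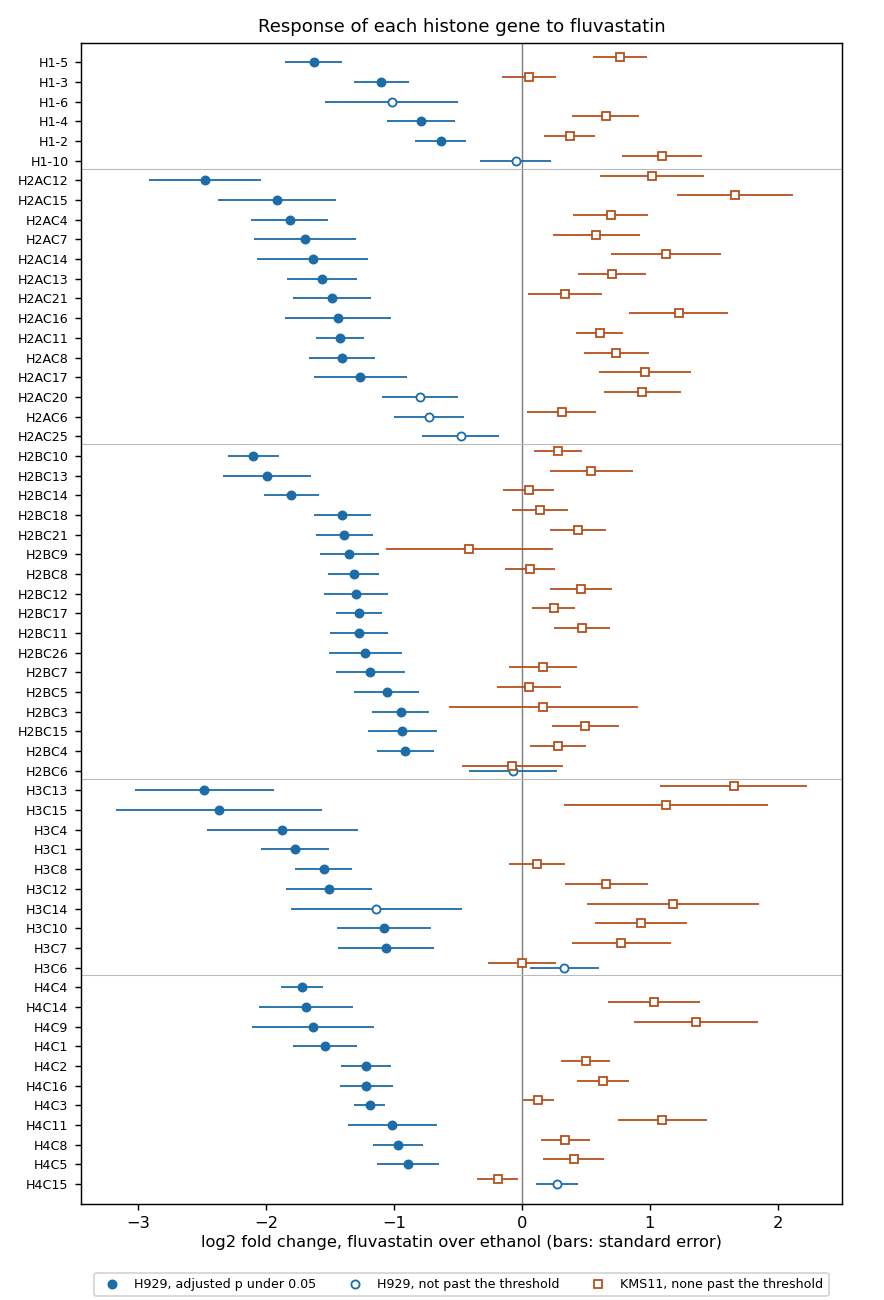
Log2 fold change of 58 members, fluvastatin against ethanol, with SE bars, in H929 (circles, filled where past the threshold) and in KMS11 (open squares, drawn for the 51 members with more than 10 counts in KMS11). The H929 values lie between -2.48 and 0.33, nearly all below 0, and the KMS11 values lie mostly above 0 with none past the threshold.

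Replicate 1 of H929 was higher than replicate 2 for 57 of 59 members in ethanol and again for 57 of 59 in fluvastatin. The share of all genes in this order was not counted, so it is not read as a trait of the members. The labels do not say whether same-numbered libraries were handled together. Over 5561 genes the deviations of same-numbered H929 libraries correlated at 0.774. The main fit did not pair them, so the lower member values in replicate 2 of both treatments are part of the spread that the test measured. With a replicate block 52 members were lower in H929, against 23.2% of all genes. Summed short non-coding RNAs differed less between these libraries, at 100662 and 98050 CPM of all genes in ethanol and 107176 and 96658 in fluvastatin. RMRP had 5301 and 4681 in ethanol and 5388 and 4124 in fluvastatin, and RPPH1 had 5917 and 4913 against 7400 and 5608. Each of these RNAs was higher in replicate 1, except RN7SL2 in ethanol (30898 and 31570). A smooth trend of counts with transcript length, fitted to the other genes, lay at a median of 0.18 log2 units for the members in both H929 ethanol libraries and at 0.05 and 0.0048 in the fluvastatin libraries. With that trend removed the median log2 fold change of the members in H929 was -1.15, with 47 lower, and with GC content removed as well it was -1.19, with 51 lower.

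**Figure D4:**
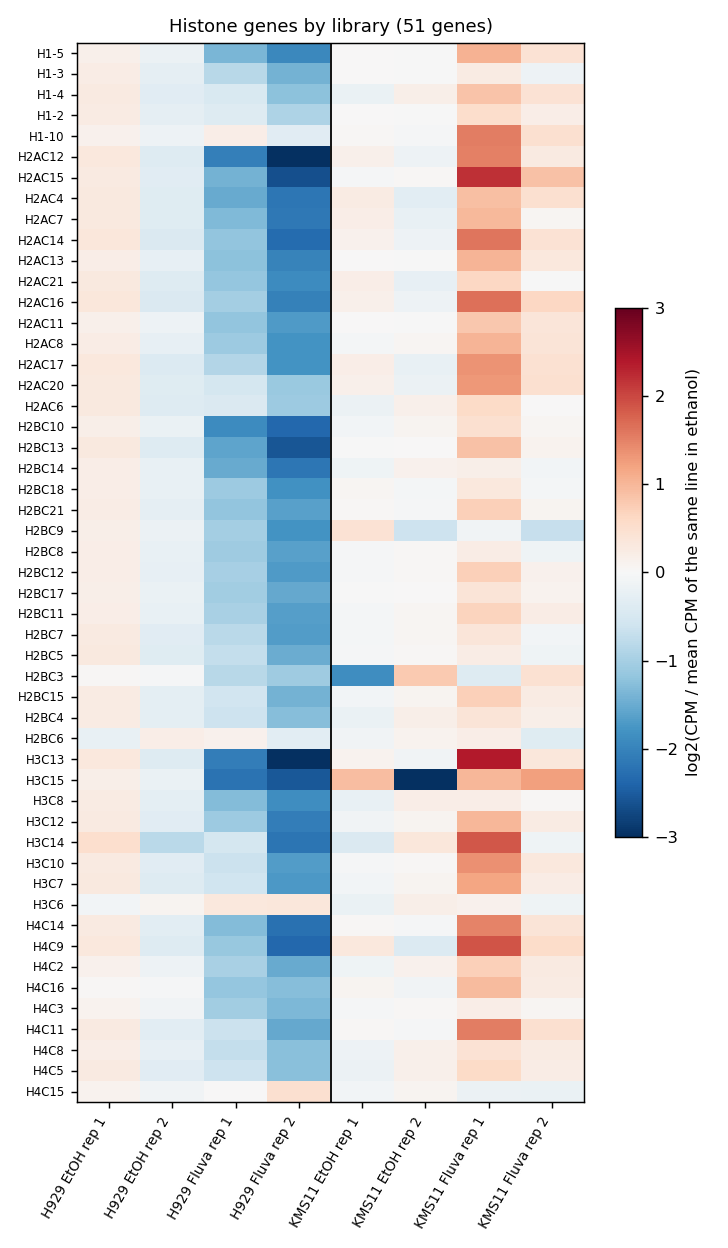
Log2 ratio of CPM to the mean of the ethanol libraries of the same line for 51 members (rows, grouped by family) in the 8 libraries (columns), with colours limited to 3 in either direction and values from -3.32 to 2.37. The H929 fluvastatin columns are mostly below 0, most strongly in replicate 2, and KMS11 fluvastatin replicate 1 stands above the other KMS11 columns.

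In KMS11 no member passed the threshold in either direction in the same edgeR test, whereas 2.58% of all genes were higher and 0.533% lower. The median log2 fold change of the members was 0.46, with 50 values above and 4 below 0. Of all 13129 genes, 6631 were above and 6310 below 0. H2AC25, H2BC26, H3C1, H3C4 and H4C1 had no counts in KMS11 and stood at 0. An unadjusted p under 0.05 was reached by 20 members, against 2874 of all genes. DESeq2 called 6 members higher, against 5.0% of all genes, and limma on log2(TPM + 1) called 0, against 0.967%. Both treated libraries were above both ethanol libraries for 34 members, an order seen in 26.9% of all genes. Both were below for 2 members, an order not counted over all genes. The smallest adjusted p was 0.0840, for H2AC15, which had 2.35 and 2.49 CPM in ethanol and 11.0 and 4.46 CPM in fluvastatin (log2 fold change 1.66 ± 0.45 SE). Without KMS11 fluvastatin replicate 2, 23 members were higher, against 11.2% of all genes. Without KMS11 fluvastatin replicate 1 none was, and the median was 0.21.

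KMS11 fluvastatin replicate 1 was higher than replicate 2 for 49 of 59 members, and the H4 and H3 copies show its size. How many of all genes had this order was not counted. H4C14 and H4C15 summed to 351 and 343 CPM in ethanol and to 917 and 442 CPM in fluvastatin. H3C14 and H3C15 summed to 113 and 99.4 CPM in ethanol and to 336 and 141 CPM in fluvastatin. H1-5 had 119 and 115 CPM in ethanol and 241 and 158 CPM in fluvastatin (log2 fold change 0.77 ± 0.21 SE, adjusted p = 0.0851), and H1-10 had 5.40 and 5.11 CPM against 15.3 and 7.39 CPM (1.10 ± 0.31 SE, adjusted p = 0.0938). In all 4 cases both treated libraries were above the ethanol libraries and replicate 1 was the higher of them. H1-3 by contrast was at 61.3 and 60.2 CPM in ethanol and 71.6 and 54.7 CPM in fluvastatin, with overlapping groups. The same library stood apart in short non-coding RNAs, which summed to 49135 and 52282 CPM of all genes in KMS11 ethanol and to 78200 and 52246 in KMS11 fluvastatin. RPPH1, the RNA of ribonuclease P, had 1380 and 1571 CPM of all genes in ethanol and 3021 and 1642 in fluvastatin, and RMRP had 1607 and 1480 against 3094 and 1618. Their part in the KMS11 values was not tested.

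The responses of the lines differed for most members. For 42 of 59 the difference, KMS11 minus H929, was positive and past the threshold, for 0 it was negative (also 0 at an unadjusted p under 0.05 and with DESeq2 and limma), and the median difference was 1.76 on the log2 scale; 11.7% of all genes were more positive in KMS11. By family these were 4 of 7 H1, 12 of 14 H2A, 13 of 17 H2B, 5 of 10 H3 and 8 of 11 H4 members. Members absent from KMS11 are included in these totals and could not pass. Of the 53 members with more than 3 counts over the KMS11 libraries, 42 passed. All 42 stayed positive in each of the 18 alternatives and 27 of them passed in every one. H3C13 had the most positive difference (4.14 ± 0.79 SE, adjusted p = 0.00584), with 2.17 and 1.86 CPM in KMS11 ethanol and 10.4 and 2.56 CPM in KMS11 fluvastatin. H2AC15 (3.58 ± 0.65 SE), H2AC12 (3.50 ± 0.60 SE), H4C9 (2.99 ± 0.68 SE), H2AC14 (2.76 ± 0.61 SE), H4C14 (2.72 ± 0.51 SE), H2AC16 (2.66 ± 0.57 SE) and H2BC13 (2.54 ± 0.47 SE) followed. H2BC10 differed by 2.38 ± 0.27 SE and had the smallest adjusted p (0.00053), with 43.5 and 49.0 CPM in KMS11 ethanol and 64.7 and 48.1 CPM in KMS11 fluvastatin. Among linker histones H1-5 differed by 2.40 ± 0.30 SE (adjusted p = 0.000902), H1-4 by 1.44 ± 0.37 SE (adjusted p = 0.0213), H1-3 by 1.15 ± 0.30 SE (adjusted p = 0.0221) and H1-2 by 1.01 ± 0.28 SE (adjusted p = 0.0292). Without H929 ethanol replicate 1 or KMS11 ethanol replicate 1 the differences of H1-4, H1-3 and H1-2 no longer passed (adjusted p from 0.065 to 0.0917). Those of H1-3 and H1-2 were also lost with limma (0.0509 and 0.079), when H929 fluvastatin replicate 2 was left out (0.0594 and 0.0829) and when ethanol replicate 2 of KMS11 was (0.0669 and 0.0816). H4C9 did not pass without KMS11 ethanol replicate 2 (adjusted p = 0.0517). H1-10 did not differ past the threshold (1.14, adjusted p = 0.0737).

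Across both lines, with the line as a term, 4 members were lower and 0 higher in fluvastatin in edgeR. At an unadjusted p under 0.05, 9 were lower and 1 higher, while 4136 of all 13129 genes passed in either direction. DESeq2 called 6 lower and 0 higher. Of all genes, 3.93% were lower in edgeR and 9.40% in DESeq2. The 4 were H4C4 (log2 fold change -1.67 ± 0.25 SE, adjusted p = 0.00803), H3C1 (-1.76 ± 0.31 SE, adjusted p = 0.029), H4C1 (-1.52 ± 0.29 SE, adjusted p = 0.0325) and H2BC9 (-1.16 ± 0.28 SE, adjusted p = 0.0352). KMS11 had 1 count of H4C4 over its 4 libraries, none of H3C1 and H4C1 and at most 0.678 CPM of H2BC9, so these values come from the H929 libraries. The count was 1 without H929 ethanol replicate 1, H929 ethanol replicate 2 or H929 fluvastatin replicate 2, and 0 without H929 fluvastatin replicate 1, where the adjusted p of H4C4 was 0.0525. With limma on log2(TPM + 1) it was also 0.

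Genes that make, carry or accompany histone mRNA were read from 5 lists, chosen with earlier results of these data known. In KMS11, 4 of these lists had no gene past the threshold in edgeR. At an unadjusted p under 0.05 they had 4 of 18 processing genes and 5 of 22 chaperones. They also had 1 of 8 replacement variants and 8 of 36 S phase genes, against 2874 of all 13129 genes. DESeq2 called 0, 1, 0 and 2 genes of these lists, against 7.05% of all genes, and limma called 0, against 1.70%. Of 18 genes for histone mRNA transcription and 3-prime end processing, 11 were lower and 1 higher in H929, and 0 passed in KMS11. Of all genes, 19.3% were lower and 22.7% higher in H929. SLBP, which binds the stem-loop, had 37.8 and 44.9 TPM in H929 ethanol and 17.0 and 21.0 TPM in H929 fluvastatin (log2 fold change -1.07 ± 0.15 SE, adjusted p = 0.000381). SRRT, a partner of the nuclear cap-binding complex, fell by 1.50 (adjusted p = 1.43e-05), and XRN1, a 5-prime exonuclease, rose by 1.10 (adjusted p = 7.87e-05). In KMS11 SLBP was at 156 and 162 TPM in ethanol and 110 and 146 TPM in fluvastatin and did not pass (adjusted p = 0.373). NPAT, the coactivator of histone gene transcription, and the cap-binding subunits NCBP1 and NCBP2 were lower across both lines (log2 fold changes -0.34, -0.30 and -0.47). Of all genes, 3.93% were lower across both lines. No other gene of this list passed there, and none of the 3 passed within KMS11. All 3 calls were lost when any 1 of the H929 libraries was left out, and also without KMS11 ethanol replicate 1 or 2 or KMS11 fluvastatin replicate 1. In these fits the log2 fold change ranged from -0.40 to -0.30 for NPAT, from -0.36 to -0.27 for NCBP1 and from -0.57 to -0.39 for NCBP2. The number called across both lines ranged from 0 to 11 over the alternatives. The H929 calls of this list fell from 12 to 6 without H929 ethanol replicate 2 or H929 fluvastatin replicate 1.

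Histone chaperones followed the members in H929. Of 22, 15 were lower and 1 higher in H929, against 19.3% and 22.7% of all genes, and 0 passed in KMS11. MCM2 is counted both here and among the S phase genes. NASP, which holds the soluble store of H3 and H4, had 38.8 and 43.6 TPM in ethanol and 11.1 and 13.1 TPM in fluvastatin in H929 (log2 fold change -1.67 ± 0.12 SE, adjusted p = 9.17e-06), and in KMS11 85.5 and 70.6 TPM against 51.1 and 58.2 TPM (adjusted p = 0.0902). CHAF1A and CHAF1B, subunits of the chromatin assembly factor that deposits H3 and H4 behind the replication fork, changed by -1.72 and -1.45 in H929 (adjusted p = 3.6e-06 and 4.54e-05), and MCM2, a helicase subunit that also binds H3 and H4, by -1.94 (adjusted p = 4.54e-06). Across both lines 2 of 22 chaperones were lower, against 3.93% of all genes. They were NASP and SUPT16H, a subunit of the FACT complex (-1.02 and -0.60). Both calls were lost when any 1 of the H929 libraries was left out (adjusted p from 0.0751 to 0.122), and the number of chaperones called ranged from 0 to 10 over the alternatives.

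Replacement variants are histones whose genes are used outside S phase and whose mRNAs are polyadenylated. Of the 8 tested of 10, 4 were lower in H929, against 19.3% of all genes, and 0 passed in KMS11. H2AX, the variant phosphorylated at DNA breaks, fell from 22.1 and 17.6 TPM to 8.91 and 6.68 TPM in H929 (log2 fold change -1.35 ± 0.18 SE, adjusted p = 0.000301), and its mRNA is known to occur in a stem-loop form as well. H2AZ1 changed by -0.60 (adjusted p = 0.00123), CENPA by -0.36 (adjusted p = 0.0436) and MACROH2A1 by -0.30 (adjusted p = 0.0163), and only 2 genes of this list passed when any 1 of the H929 libraries was left out. H3-3A and H3-3B, named for contrast after their values were seen, had log2 fold changes of 0.19 and 0.05 in H929 and did not pass.

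Genes of S phase and DNA replication moved together in H929. Of 36, 35 were lower in H929 (median log2 fold change -1.42), with POLD1 the exception, against 19.3% of all genes. In KMS11 0 passed (median -0.07). The difference between the lines was positive and past the threshold for 33, against 11.7% of all genes. Their summed level was 1325 and 1366 TPM in H929 ethanol and 507 and 531 TPM in fluvastatin, 2.59-fold lower, and the replicates lay closer together than those of the histone members. In KMS11 it was 1655 and 1584 TPM in ethanol and 1358 and 1575 TPM in fluvastatin. The largest falls in H929 were those of the phosphatase CDC25A (-2.63), the replication factor MCM10 (-2.42), the hemimethylated DNA reader UHRF1 (-2.30) and the licensing factor CDC6 (-2.22), with adjusted p of at most 1.99e-06. GINS4 and PRIM1 were the 2 genes lower across both lines (-0.84 and -0.51), and neither passed when any 1 of the H929 libraries was left out (adjusted p from 0.0651 to 0.139). Of all genes, 3.93% were lower across both lines. In KMS11 fluvastatin replicate 1 the summed S phase genes were the lowest of the 4 KMS11 libraries and the summed histone members the highest.

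Cell cycle inhibitors and G1 regulators numbered 16, of which 8 were higher and 4 lower in H929 and 2 were higher in KMS11, against 22.7% and 19.3% of all genes in H929 and 2.58% in KMS11. CDKN1A, which encodes the inhibitor p21, had 0.93 and 1.06 TPM in KMS11 ethanol and 3.63 and 4.80 TPM in KMS11 fluvastatin (log2 fold change 2.22 ± 0.19 SE, adjusted p = 0.000266). CDKN2B, which encodes p15, rose in KMS11 (1.31 ± 0.18 SE, adjusted p = 0.00421) and in H929 (1.36 ± 0.21 SE, adjusted p = 0.000784). CDKN1C and CDKN2D rose in H929 by 1.53 and 1.27, and the kinase gene CDK2 fell by 1.50. The H929 call of CDKN1C was lost without H929 ethanol replicate 2 (adjusted p = 0.142), without H929 fluvastatin replicate 1 (0.0833) or 2 (0.0681) and with limma (0.0975). CDKN2B did not pass in KMS11 without KMS11 ethanol replicate 2 (adjusted p = 0.0787) or in H929 with limma (0.0767). Across both lines 5 genes of this list were higher and 0 lower, against 854 and 516 of all 13129 genes. The number called across both lines ranged from 1 to 10 over the alternatives. There CDKN1A, CDKN1C and CDKN2D were among the calls lost without H929 ethanol replicate 1 (adjusted p = 0.051, 0.0575 and 0.0583), H929 ethanol replicate 2 (0.109, 0.0717 and 0.0754) or H929 fluvastatin replicate 1 (0.1, 0.0831 and 0.0749). CDKN1C also missed the threshold without H929 fluvastatin replicate 2 (0.0601) or ethanol replicate 1 of KMS11 (0.0575), and CDKN1A missed it without any 1 of the KMS11 libraries (0.051 to 0.0945).

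**Figure D5:**
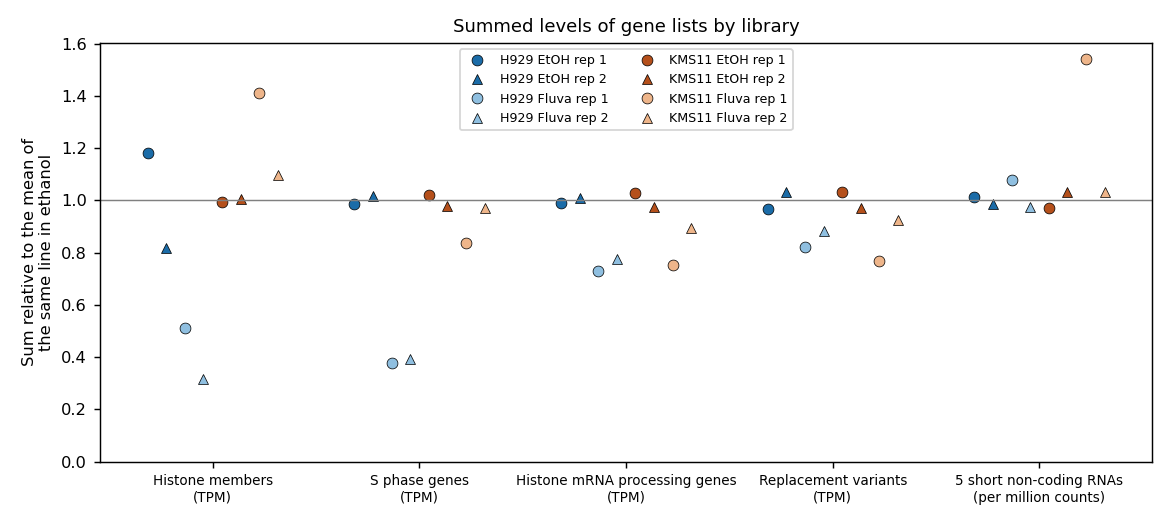
Summed levels (TPM, and CPM of all genes for the short non-coding RNAs) relative to the mean of the ethanol libraries of the same line (1 on the vertical axis) in the 8 libraries, for the histone members, the S phase genes, the genes for histone mRNA processing, the replacement variants and the 5 short non-coding RNAs. In H929 the members and the S phase genes are low in both fluvastatin libraries, and in KMS11 fluvastatin replicate 1 the members and the short non-coding RNAs are above 1.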

How the data were processed

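Total RNA of H929 and KMS11 cells was sequenced after 24 h in ethanol or 2 µM fluvastatin (8 libraries, 2 per group, grouped by the sample labels). The authors prepared stranded libraries after removal of ribosomal RNA, aligned reads to GRCh38 with STAR 2.5.2b and quantified genes of GENCODE release 26 with RSEM 1.3.0. They deposited expected counts, which are estimated and not normalized and divide fragments between near-identical copies, together with TPM scaled by effective length. The deposited effective length entered the length trends (unit: bases), and FPKM was not used. Depth per library is given with the results. It sets the floor for members with few counts, and intervals cover counting error only.

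Symbols came from GENCODE release 44 (57392 identifiers matched). The identifiers of H2AC18, H2AC19, H3C2 and H3C3 were not matched and these genes are not analysed here. The members and lists were chosen with earlier results of these data known. Expected counts were rounded, filtered with filterByExpr (minimum count 10, minimum total 15), scaled by TMM and tested in R 4.3.3 with edgeR 4.0.16 (quasi-likelihood test, Benjamini-Hochberg adjustment over 13129 protein-coding genes, threshold 0.05). One fit had terms for line and treatment and the other had 4 group means. The study's methods compare treatments with DESeq2 and name no line term. CPM are relative to the tested genes, and sums over members were not tested. The fits were tested on simulated data.

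Alternatives were DESeq2 1.42.0, median-of-ratios and library size scaling, no filter, a minimum count of 50, all annotated genes, a replicate block, length and GC trends (mgcv 1.9.3, fitted without the members), limma 3.58.1 on log2(TPM + 1), leaving out each library, and members with at least 50% of 75-base windows unique. Alternatives for the lists and the short non-coding RNA values were chosen after seeing the data.

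Members were named if they were among the 8 largest changes past the threshold in a comparison (mean log2 CPM not below 0), among the 2 highest mean TPM of a family, linker histones, or next to the sum of 40. A result that concerns a withheld item is not reported here and the item is not drawn in the plots of single genes, while counts and sums over members include it. Up to 4 genes were named per list and comparison. Others were chosen after their values were seen: the remaining members not past the threshold in H929, the copies H4C15 and H3C14, the neighbours of absent members, POLD1, and the marker genes. Stem-loops and motifs were found with Python 3.11.15.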

Additional observations from a re-analysis of the deposited data

Results flagged for a closer look

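The responses of the lines differed past the threshold for 42 members, each with a more positive value in KMS11 than in H929, by a contrast of the group means in edgeR. Among the members named, the difference on the log2 scale was 4.14 for H3C13, 3.58 for H2AC15, 3.50 for H2AC12, 2.99 for H4C9, 2.76 for H2AC14, 2.72 for H4C14, 2.66 for H2AC16, 2.54 for H2BC13, 2.51 for H2AC4, 2.40 for H1-5, 2.38 for H2BC10 and 2.26 for H2AC13. Smaller differences were found for H3C7 (1.84), H2AC21 (1.82), H2BC12 (1.76), H1-4 (1.44), H4C8 (1.31), H2BC4 (1.20), H1-3 (1.15) and H1-2 (1.01). KMS11 fluvastatin replicate 1 was high in members and in short non-coding RNAs alike. Without it the median difference of the members was 1.49, and without KMS11 fluvastatin replicate 2 it was 1.92. When each library in turn was left out, the median ranged from 1.45 to 2.06. What the short non-coding RNA values have to do with the members was not tested. No group had more than 2 replicates, so single libraries were not examined as outliers.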

How the results depend on the processing

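Within H929, 50 members passed in either direction, between 44 and 53 in the alternatives that kept every library and between 33 and 53 when a library was left out. Within KMS11 the count of 0 became 6 with DESeq2 (5.0% of all genes higher), 18 without a filter on low counts (5.43%), 24 with a replicate block (8.84%) and 3 with GC and length trends removed (6.35%), all higher, and it ranged from 0 to 23 when a library was left out. Across both lines the count of 4 became 0 with the replicate block and with limma on log2(TPM + 1), and ranged from 0 to 5 without a library. The counts for the difference between the lines (42) and for KMS11 against H929 in ethanol (41) stayed within 1.5 times in each alternative run, with ranges of 31 to 46 and 32 to 46 without a library. The difference of H2BC12 between the lines in ethanol was -0.66 and turned to 0.26 (adjusted p = 0.119) with GC and length trends removed. The causes of these changes were not tested. Deviations of same-numbered libraries correlated at 0.774 in H929 and -0.0782 in KMS11 over 5561 genes. The labels do not say whether the libraries were paired, so the main fit did not pair them and the replicate block was run as an alternative. With the replicate block 53 members passed in H929, and across both lines 0 processing genes, 0 chaperones and 1 cell cycle gene did. Where a group is left with 1 library, that library is assumed to vary like the other groups. Of 1421 values of named members recomputed, 1314 kept direction and side of the threshold, 106 kept direction only and 1 turned. Calls of S phase genes ranged from 34 to 36 in H929, 0 to 8 in KMS11 and 0 to 25 across both lines. At these depths a gene at 0 counts is limited only to below the floor of 3 counts.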
